A study of Sus scrofa with 5 samples.

Results

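The genes described here encode synaptic adhesion proteins and synapse organizers, measured in single nuclei of pig dorsal root ganglia. Members were the rows of the deposited count table whose symbol begins with NRXN, NLGN, LRRTM, LRRN, SLITRK, CNTN (which takes in CNTNAP), TENM, IL1RAPL, DSCAM, NECTIN, CADM, FLRT, LRFN or CBLN. The rule found 51 of 30477 rows, in 15 families with CNTN and CNTNAP counted apart. Of these, 46 held at least 50 unique molecular identifiers (UMIs, each standing for 1 captured RNA molecule) over the nuclei compared. The other 5 (CBLN1, CBLN3, CBLN4, NECTIN4 and SLITRK6) are named only. Together the members held 160757 UMIs, 0.93% of all UMIs, and 66.9% of these came from 10 genes, among them TENM2, NRXN3, CADM2, CNTN1, CNTN2, CADM1, CADM3, CNTNAP5 and NECTIN3.

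The study profiled sensory ganglia of 5 male Landrace pigs without a treatment or a second group. Per isolation, 80 mg of ganglia from thoracic and lumbar levels were lysed with 1 of 2 detergents, and nuclei were separated on a density gradient or enriched with an antibody against NeuN, a nuclear protein of neurons. The table held 2189 nuclei. Barcodes had 6 different endings, which were read as 6 libraries. No label states this, and nothing tied a library to a pig. All nuclei were therefore treated as 1 pooled sample: differences between groups of nuclei have no replicate check, no p-value was computed, and libraries serve only to show how far a value varied.

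Sensory neurons of the dorsal root ganglion send an axon to skin, muscle or viscera and another branch to the spinal cord, where they form excitatory synapses. Presynaptic neurexins bind neuroligins, LRRTM proteins and secreted cerebellins across the synaptic cleft, while teneurins and FLRT proteins bind latrophilins, and SLITRK, LRFN and IL1RAPL proteins bind receptor-type phosphatases. Contactins, CNTNAP, CADM, nectin and DSCAM proteins hold membranes together, guide axons or keep neurites of like cells apart.

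Nuclei were clustered without the members, and each cluster took the name of the 1 gene, out of TRPM8, IL31RA, GFRA2, ADCYAP1, KIT, NTRK2, NTRK3 and PVALB, that stood highest in it over the rest of its library. The groups held 410 nuclei for TRPM8 (a cold-gated channel), 197 for IL31RA (an itch cytokine receptor), 217 for GFRA2 (the neurturin receptor), 583 for ADCYAP1 (the neuropeptide PACAP), 96 for KIT (the stem cell factor receptor), 201 for NTRK2 and 167 for NTRK3 (neurotrophin receptors TrkB and TrkC) and 215 for PVALB (parvalbumin). A remaining 103 nuclei joined no group. Groups carry the name of their leading gene and no cell type name. As a check, SCN10A, a sodium channel of small-diameter neurons, stood at 841 CPM (UMIs of a gene per 1000000 UMIs of the group) in the KIT group, 824 CPM in the GFRA2 group, 241 CPM in the NTRK2 group, 123 CPM in the TRPM8 group and 37.1 CPM in the PVALB group. NEFH, a neurofilament of large axons, was at 5963 CPM in the PVALB group, 1620 CPM in the NTRK2 group, 1004 CPM in the GFRA2 group and 545 CPM in the NTRK3 group. The NTRK2, NTRK3 and PVALB groups, 583 nuclei, are called the large-fibre side below, and the TRPM8, IL31RA, GFRA2 and ADCYAP1 groups, 1407 nuclei, the C-fibre side. These names are shorthand for the sets of leading genes, since the checks bore them out unevenly. Summed over the listed C-fibre genes, the C-fibre groups had 3229 to 7837 CPM and the large-fibre groups 817 to 1676 CPM. Summed over the listed large-fibre genes, the PVALB group stood at 7155 CPM, but the NTRK3 group, at 1489 CPM, was close to the IL31RA group, at 1374 CPM. Of the PVALB group's 7155 CPM, NEFH supplied 5963. SCN10A was higher in the NTRK2 group than in the TRPM8 group, against the side names. NEFH was higher in the GFRA2 group than in the NTRK3 group, also against them. The KIT group was on neither side.

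Libraries differed in ways that touch every level below. Median depth ranged from 676 UMIs per nucleus in library 2, which held 13 nuclei, to 12038 in library 6, and no barcode occurred in more than 1 library. The median mitochondrial share of UMIs was 18.5% in library 3 and 0.0605% in library 6. In library 3 it was 41.8% in the IL31RA group and 33.4% in the PVALB group, against 0.899% in the NTRK3 group. Library 3 held no UMI of 906 rows, 894 of them Ensembl identifiers, at which the other libraries' level would give at least 20 UMIs, and those rows carried 9.27% of the other libraries' UMIs. No member was among them. The NTRK2 group came mainly from library 3 (170 of 201 nuclei), and the PVALB group (142 of 215) and the TRPM8 group (287 of 410) from library 1. The TRPM8 group was also the shallowest, with a median of 1716 UMIs per nucleus. Its largest cluster, cluster 0, held 288 nuclei with a median of 1414 UMIs. Nuclei above 50000 UMIs, 30 in all, supplied 16.8% of UMIs, and 33.4% of those of the NTRK3 group. Of the 10 listed satellite glia and Schwann cell genes 9 were measured, none was at 0 in any group, and their summed level ran from 346 CPM in the NTRK3 group to 1068 CPM in the PVALB group. The part of these factors in the results was not tested.

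Levels of a member differed between groups. Over the 46 genes, the highest group stood a median of 7.75-fold above the lowest, and 20 genes differed by at least 10-fold. These folds were not computed for all genes, so they do not show whether members differed more than other genes. Such a fold is unsteady where UMIs are few: NLGN3, at 15.1-fold, had 1 UMI in its lowest group, NTRK2. For 18 genes the highest group's exact Poisson 95% interval lay above that of the next group, and for 28 it did not. These intervals and those of ratios below (exact conditional binomial) cover counting error only. The NTRK3 and PVALB groups each held the highest level of 10 genes, and the PVALB group the lowest level of 14. Highest and lowest are by pooled level. For 5 genes (CADM3, IL1RAPL2, LRRN3, LRRTM4 and NECTIN1) the group with the highest pooled level led in none of the libraries where at least 4 groups could be compared.

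**Figure D1:**
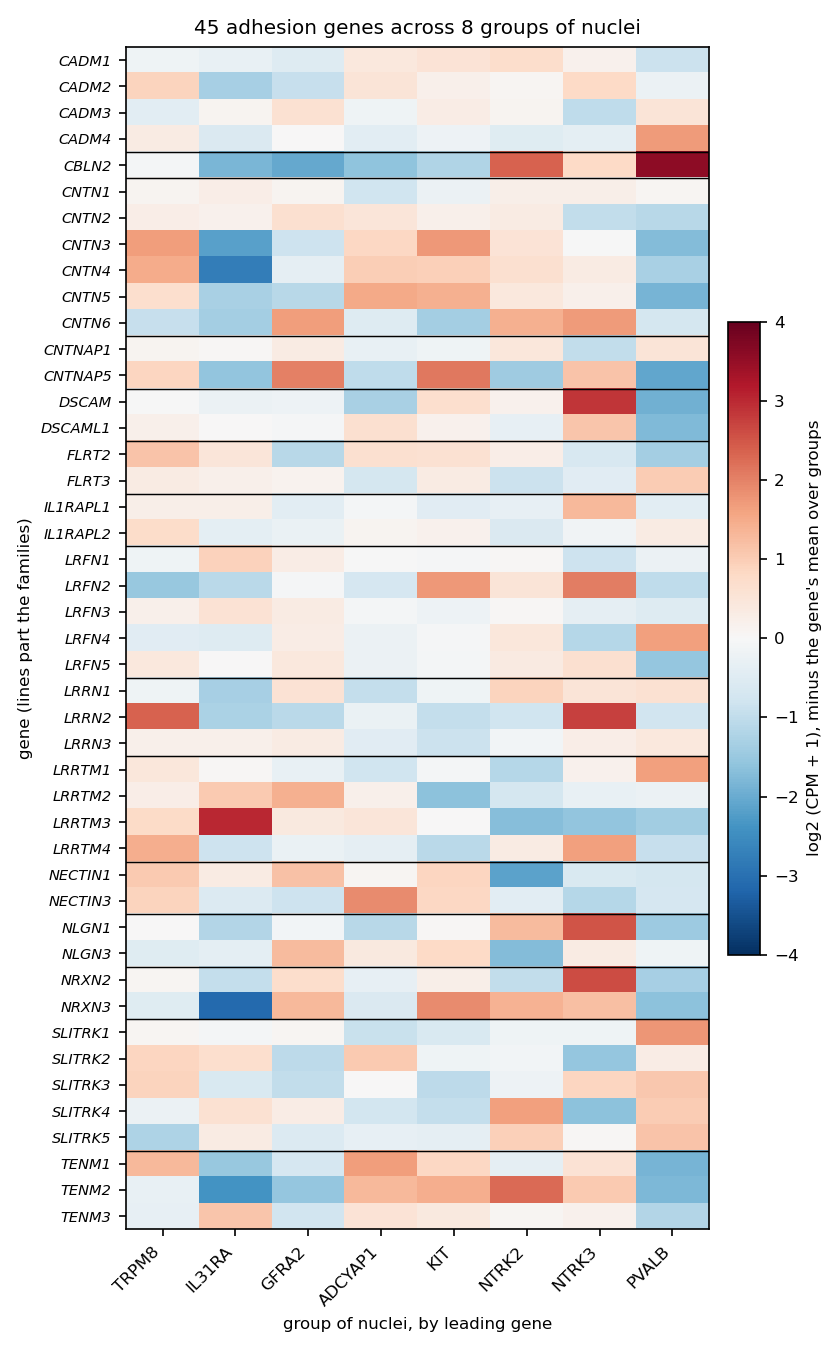
Level of 45 of the 46 genes with at least 50 UMIs in the 8 groups of nuclei. Color gives log2 (CPM + 1) minus the gene's mean over the groups, rows are genes parted by family, and CBLN2 in the PVALB group (85.4 CPM), LRRTM3 in the IL31RA group (266 CPM) and DSCAM in the NTRK3 group (1160 CPM) stand above the rest of their rows.

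The neurexins are presynaptic receptors that organize release sites, and NRXN3 differed widely between groups of the C-fibre side. It lies on chromosome 7, 101132780 to 102779809 (RefSeq genes, Sscrofa11.1). Its highest level was 2259 CPM in the KIT group, and its lowest was in the IL31RA group, at 59.8, 58.1, 217 and 53.6 CPM in libraries 1, 3, 5 and 6. GFRA2 nuclei, which sit on the same C-fibre side, had 726, 1845, 1519 and 1832 CPM in the same libraries. Every GFRA2 value lay above every IL31RA value. Pooled, the IL31RA group had 69.9 CPM against 910 in the other groups, a 13.0-fold lower level (11.0 to 15.5).

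The same 2 groups were at the ends in shares of nuclei. Thinned to 1000 UMIs, 80.0% of 95 KIT nuclei and 5.67% of 194 IL31RA nuclei held an NRXN3 UMI, leaving out 1 and 3 shallower nuclei. The unthinned shares were 96.9% and 29.4%, at median depths of 6680 and 7343 UMIs.

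NRXN2 was far scarcer in tags, with 297 UMIs, and was highest in the NTRK3 group. Its level there was 49.1, 73.5, 48.2 and 86.6 CPM in libraries 3 to 6. In the ADCYAP1 group the same libraries gave 3.64, 0, 13.4 and 10.5 CPM. Other groups came closer in their highest library: 47.0 CPM in TRPM8, 37.3 CPM in GFRA2 and 33.6 CPM in KIT. The NTRK3 group's 71.0 CPM was 7.36-fold (5.79 to 9.35) the level of the other groups, and NRXN2 was 3.12-fold higher (2.44 to 3.99) on the large-fibre side than on the C-fibre side.

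Among the neurexins' binding partners, NLGN1, a neuroligin of excitatory synapses, was highest in the NTRK3 group. It lies on chromosome 13, 111851007 to 112727202. The NTRK3 nuclei had 1617, 1306, 353 and 534 CPM in libraries 3 to 6, and the NTRK2 nuclei had 473 CPM in library 3 and 216 CPM in library 6. No C-fibre group passed 238 CPM in any library. The NTRK3 group stood 7.67-fold (7.18 to 8.19) above the other groups, and the large-fibre side, 496 CPM, stood 4.89-fold (4.55 to 5.25) above the C-fibre side, 101 CPM. Without nuclei above 50000 UMIs these log2 ratios, 2.94 and 2.29, were 2.60 and 1.89. The PVALB group did not share this level: it had 66.6, 40.9 and 24.7 CPM in libraries 1, 3 and 4. NLGN3, with 132 UMIs, was highest in the GFRA2 group (15.3 CPM) and lowest in the NTRK2 group (1.01 CPM).

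The LRRTM genes encode leucine-rich repeat proteins that bind neurexins from the postsynaptic side, and LRRTM3 stood highest in the IL31RA group. LRRTM3 (chromosome 14, 70172460 to 70352073) was at 331, 249, 233 and 317 CPM in libraries 1, 3, 5 and 6 in that group. The highest value of any other group in a library was 98.5 CPM, in the TRPM8 nuclei of library 3. Pooled, the IL31RA group had 266 CPM against 34.4 in the others, a 7.74-fold difference (6.83 to 8.76) seen in 4 of 4 libraries. Thinned to 1000 UMIs, an LRRTM3 UMI was found in 23.7% of IL31RA nuclei and in 0.575% of 174 NTRK2 nuclei (27 left out), with unthinned shares of 68.0% and 2.99% at median depths of 7343 and 2964 UMIs.

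LRRTM3 also showed the largest difference against the large-fibre side: 10.5 CPM there and 84.3 CPM on the C-fibre side, 8.05-fold lower (6.03 to 11.0), in 5 of 5 libraries. It made up 76.0% of LRRTM UMIs in the IL31RA group and 2.73% in the NTRK3 group, where LRRTM4 made up 94.3%. Tags were counted at the 3′ end and not divided by transcript length, so such a share compares groups and not the abundance of one paralog with another. LRRTM4 had 348 CPM in the NTRK3 group and 306 CPM in the TRPM8 group, with intervals that met. Within libraries the TRPM8 group led in 4 of 4 and the NTRK3 group in 0 of 3. In the TRPM8 group it stood 2.64-fold (2.38 to 2.92) above the other groups, at 172, 443, 376 and 528 CPM in libraries 1, 3, 5 and 6. Without the nuclei of cluster 0 that log2 ratio was 1.935 instead of 1.401.

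LRRTM1 and LRRTM2 were low throughout. LRRTM1 had 13.0 CPM in the PVALB group, 4.70-fold (2.64 to 8.11) above the other groups, and 1 library allowed a ratio of its own, with a log2 ratio of 0.72. Between the sides LRRTM1 was 2.46-fold higher (1.43 to 4.22) on the large-fibre side. LRRTM2 had 25.4 CPM in the GFRA2 group, 2.54-fold (1.88 to 3.42) above the others, and was 2.31-fold lower (1.57 to 3.50) on the large-fibre side, higher there in 2 of 4 libraries. Without library 2, the LRRTM2 log2 ratios were 0.945 for the GFRA2 group and −0.919 between the sides, short of 2-fold.

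Cerebellins are secreted proteins that bridge neurexins to GRID receptors, and CBLN2 gave the largest ratio between the sides of any member. It had 42.7 CPM on the large-fibre side and 1.77 CPM on the C-fibre side, 24.1-fold higher (15.2 to 40.3), from 196 and 20 UMIs, in 4 of 4 libraries. The PVALB group held most of it, with 92.7, 40.9 and 89.7 CPM in libraries 1, 3 and 4, which put it 16.2-fold (12.2 to 21.6) above the other groups. In the GFRA2 group 2 of 4 libraries held no CBLN2 UMI and the other two had 1.49 and 1.29 CPM. The NTRK2 group, at 35.5 CPM, was 3.07-fold (2.07 to 4.42) above the other groups. Without library 3 that log2 ratio was 0.613 and without library 1 it was 2.85. The level was uneven over its 3 clusters: cluster 13 had 70.8 CPM of CBLN2 from 32 UMIs, cluster 11 had 3 UMIs and cluster 16 had none. Cluster 13 joined the NTRK2 group with a log2 score of 1.22, where at least 1 was needed. GRID1, a GRID receptor gene that is no member, ran from 72.5 CPM in the IL31RA group to 403 CPM in the KIT group.

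**Figure D2:**
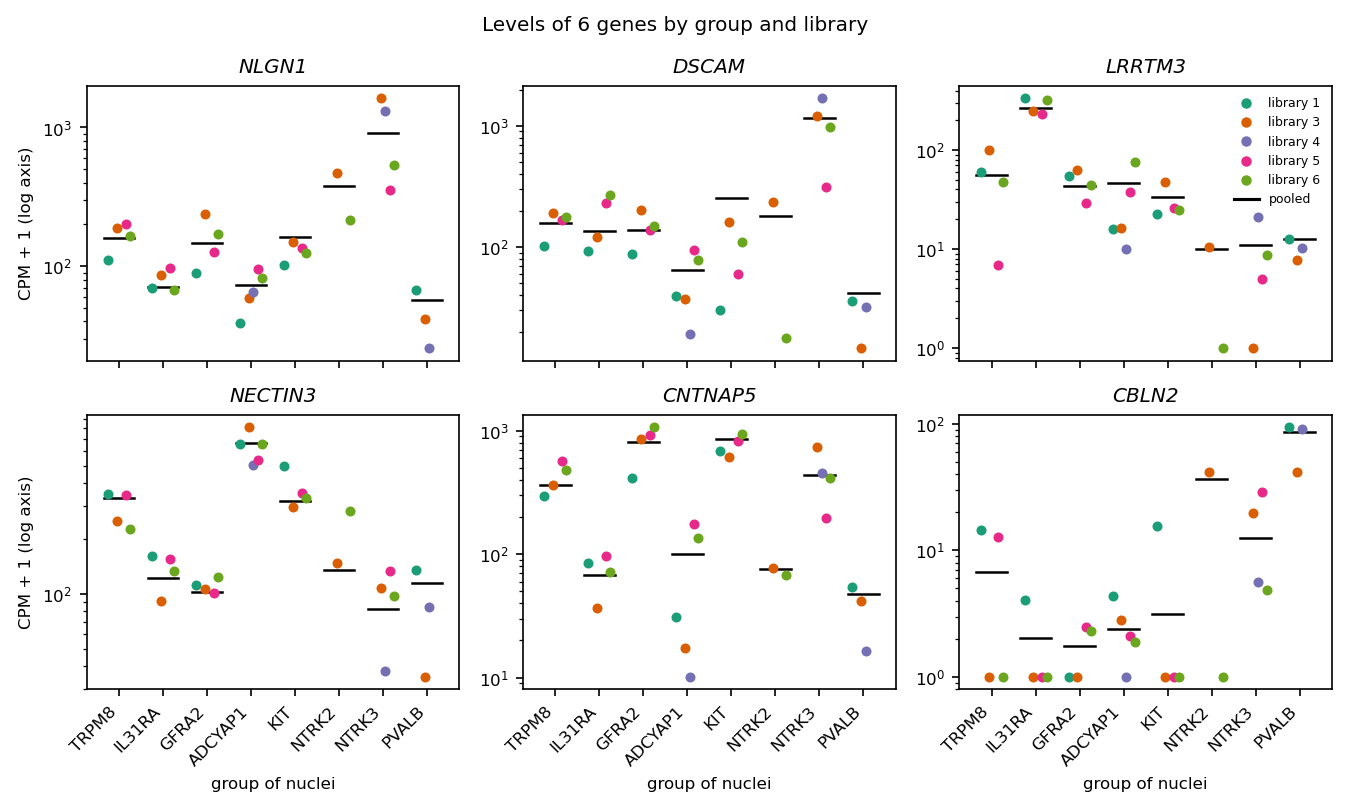
Level of NLGN1, DSCAM, LRRTM3, NECTIN3, CNTNAP5 and CBLN2 by group, as CPM + 1 on a log axis. Points are libraries with at least 10 nuclei of the group and lines are pooled levels over all libraries, and in the IL31RA group LRRTM3 lies above 200 CPM in 4 of 4 libraries.

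Teneurins are large transmembrane proteins that bind latrophilins and match pre- and postsynaptic partners. By pooled level, each of the 3 led in a different place. TENM2 (chromosome 16, 55624273 to 59084150) had 2378 CPM in the NTRK2 group, 3.40-fold (3.25 to 3.56) above the other groups. This level was uneven: the NTRK2 nuclei had 1359 CPM in library 3 and 5819 CPM in library 6, and without library 3 the log2 ratio was 3.14. By cluster, 33 nuclei of cluster 16 had 7240 CPM of TENM2, 98 nuclei of cluster 11 had 1315 CPM and 70 nuclei of cluster 13 had 186 CPM. Cluster 16 was near a tie between groups, with a log2 score of 2.24 for NTRK2 and 2.18 for KIT. Outside the NTRK2 group, TENM2 was at 1359 CPM in the KIT group and 93.5 CPM in the IL31RA group.

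TENM3 followed the opposite order in the IL31RA group, with 446, 502, 463 and 618 CPM in libraries 1, 3, 5 and 6. The other groups stayed at or below 396 CPM in every library. Its pooled level of 453 CPM was 2.07-fold (1.92 to 2.23) above the other groups, and without library 1 the log2 ratio was 0.962. TENM3 supplied 78.3% of teneurin UMIs in the IL31RA group, while TENM2 supplied 88.9% in the NTRK2 group.

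TENM1 had its highest pooled level in the ADCYAP1 group, 300 CPM, 3.14-fold (2.91 to 3.40) above the pooled other groups, in 5 of 5 libraries. Its pooled lead over each single group did not hold within libraries, where the ADCYAP1 and TRPM8 groups each led in 2 of 4. Over libraries the TRPM8 group ran from 115 to 584 CPM and the ADCYAP1 group from 119 to 336 CPM. TENM1 was 2.20-fold lower (1.97 to 2.45) on the large-fibre side, and without library 1 that log2 ratio was −0.984. The latrophilin genes, not members, varied less: ADGRL1 spanned 24.7 to 74.4 CPM over the groups, ADGRL2 59.6 to 136 CPM and ADGRL3 27.9 to 101 CPM.

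FLRT2 and FLRT3, which bind latrophilins and Unc5 receptors, went to different groups. FLRT2 was highest in the TRPM8 group, at 290 CPM, and lowest in the PVALB group, at 50.1 CPM. It was 2.03-fold lower (1.83 to 2.27) on the large-fibre side, and without library 1 the log2 ratio was −0.83. FLRT3, with 233 UMIs, was highest in the PVALB group, at 28.5 CPM.

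Contactins are GPI-anchored adhesion proteins of axons, and 2 of the 6 measured, CNTN2 and CNTN4, had a highest group whose interval lay above the next. CNTN3 differed between TRPM8 and IL31RA nuclei in every library with both. In the TRPM8 group it had 329, 706, 941 and 1112 CPM in libraries 1, 3, 5 and 6, and in the IL31RA group 66.0, 37.5, 66.7 and 41.2 CPM, with no overlap. The TRPM8 group was 2.73-fold (2.55 to 2.92) above the others, and the KIT group, at 705 CPM, had an interval that met that of the TRPM8 group, at 682 CPM. CNTN4 had 446 CPM in the TRPM8 group and 22.6 CPM in the IL31RA group. Its pooled lead did not hold within libraries, where the TRPM8 and ADCYAP1 groups each led in 2 of 4. CNTN5 was highest in the ADCYAP1 group, 512 CPM, 3.01-fold (2.84 to 3.19) above the other groups, and lowest in the PVALB group, 48.9 CPM. The KIT group, at 483 CPM, had an interval that met that of the ADCYAP1 group, and each led CNTN5 in 2 of 4 libraries.

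CNTN6 was high in 3 groups from both sides: 80.6 CPM in the NTRK3 group, 78.5 CPM in the GFRA2 group and 66.0 CPM in the NTRK2 group, against 8.62 CPM in the KIT group. The GFRA2 group was 2.95-fold (2.48 to 3.50) above the others. CNTN2, also called TAG-1, was at 699 CPM in the GFRA2 group and 209 CPM in the PVALB group, and was 2.09-fold lower (1.97 to 2.22) on the large-fibre side in 5 of 5 libraries. Without library 6 its log2 ratio was −0.916. CNTN1, the contactin of paranodal junctions, varied least of the 10 genes with most UMIs, from 319 CPM in the ADCYAP1 group to 666 CPM in the IL31RA group.

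Of the contactin-associated proteins, CNTNAP5 (chromosome 15, 26875305 to 27740340) was highest in the KIT and GFRA2 groups. The KIT group had 687, 606, 831 and 941 CPM in libraries 1, 3, 5 and 6, and the GFRA2 group had 412, 852, 913 and 1064 CPM. The NTRK3 group overlapped with both at 740 CPM in library 3 and had 197 to 450 CPM in libraries 4 to 6. The ADCYAP1 group reached 173 CPM at most, in library 5, and the IL31RA group 95.8 CPM, also in library 5. Over the other groups the ratio was 3.77 (3.56 to 3.99) for the GFRA2 group and 3.11 (2.88 to 3.36) for the KIT group. CNTNAP1, a paranodal protein of myelinated axons, had 105 CPM in the PVALB group and 36.8 CPM in the NTRK3 group.

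NECTIN3, an adhesion molecule that pairs with nectin-1 at puncta adherentia, was highest in the ADCYAP1 group in each of the 4 libraries where at least 4 groups could be compared. The gene lies on chromosome 13, 148448581 to 148578920. ADCYAP1 nuclei had 657, 810, 507, 533 and 657 CPM in libraries 1, 3, 4, 5 and 6. Pooled, 662 CPM stood against 154 CPM in the other groups, 4.31-fold higher (4.06 to 4.56). On the large-fibre side NECTIN3 had 104 CPM against 390 CPM on the C-fibre side, 3.76-fold lower (3.42 to 4.14) in 5 of 5 libraries. Its partner NECTIN1 was 2.96-fold lower (2.12 to 4.23) on the large-fibre side, in 4 of 5 libraries, with 38.9 CPM in the GFRA2 group and 35.3 CPM in the TRPM8 group. Their intervals met, and within libraries TRPM8 led in 3 of 4 and GFRA2 in 0 of 4.

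The CADM genes encode immunoglobulin adhesion proteins that pair along axons and with glia. CADM2 was at 904 CPM in the TRPM8 group and 843 CPM in the NTRK3 group, with intervals that met, and at 196 CPM in the IL31RA group. CADM3 ran from 170 CPM in the NTRK3 group to 528 CPM in the GFRA2 group, which led in 0 of 4 libraries while the KIT group led in 3 of 4. CADM1 ran from 202 CPM in the PVALB group to 590 CPM in the NTRK2 group, where library 6 gave 1530 CPM and library 3 gave 374 CPM. Between the sides their log2 ratios were −0.02 for CADM1, 0.22 for CADM2 and −0.15 for CADM3, none at 2-fold. CADM4, with 166 UMIs, was highest in the PVALB group, at 31.6 CPM.

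SLITRK, LRFN, IL1RAPL and LRRN genes encode leucine-rich repeat or immunoglobulin proteins, most of which bind receptor-type phosphatases. The PVALB group held the highest level of SLITRK1, SLITRK3 and SLITRK5. SLITRK1 had 31.5, 75.0 and 40.2 CPM there in libraries 1, 3 and 4 and was 4.55-fold (3.28 to 6.24) above the other groups. Between the sides SLITRK1 was 2.35-fold higher (1.73 to 3.19) and SLITRK5 2.27-fold higher (1.49 to 3.44) on the large-fibre side, and without library 1 the log2 ratio of SLITRK5 was 0.971. SLITRK2 went the other way, 2.11-fold lower (1.63 to 2.77) on the large-fibre side in 5 of 5 libraries, and without library 6 its log2 ratio was −0.948. It was highest in the ADCYAP1 group, at 42.1 CPM. SLITRK4 was highest in the NTRK2 group, 96.4 CPM, 3.35-fold (2.66 to 4.19) above the others, with 107 CPM in library 3 and 16.6 CPM in library 6.

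LRFN2 was high in the NTRK3 group, 48.9 CPM, and in the KIT group, 38.8 CPM, where it stood 3.14-fold (2.14 to 4.50) above the other groups. It was 3.97-fold higher (2.95 to 5.37) on the large-fibre side, in 5 of 5 libraries. LRFN1 had 17.5 CPM in the IL31RA group, 2.08-fold (1.38 to 3.05) above the others, and without library 2 its log2 ratio was 0.897. LRFN5 had 5119 UMIs and a log2 ratio of 0.00 between the sides, from 91.6 CPM in the PVALB group to 422 CPM in the NTRK3 group. LRFN3 was highest in the IL31RA group and LRFN4 in the PVALB group, both under 20 CPM. IL1RAPL1 was highest in the NTRK3 group at 296 CPM, with 858 CPM in library 3 and 100 CPM in library 5, and IL1RAPL2 had 97.0 CPM in the TRPM8 group, which led in 0 of 4 libraries, with 4 other groups leading in 1 each.

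LRRN2 had 2 high groups, NTRK3 at 81.6 CPM and TRPM8 at 62.3 CPM, while the other 6 had at most 9.21 CPM. The TRPM8 group was 3.78-fold (2.96 to 4.80) above the others in 4 of 4 libraries, and the large-fibre side 2.65-fold (2.13 to 3.30) above the C-fibre side. Without library 4 that log2 ratio between the sides was 0.942. LRRN1 was 2.01-fold higher (1.86 to 2.17) on the large-fibre side in 5 of 5 libraries, at 265 against 132 CPM, and without library 3 its log2 ratio was 0.847. LRRN3, with 113 UMIs, had 9.28 CPM in the PVALB group and 8.59 CPM in the GFRA2 group, with intervals that met, and the PVALB group led in 0 of 2 libraries.

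DSCAM, a homophilic receptor in neurite self-avoidance, was the most NTRK3-skewed member. It lies on chromosome 13, 203566765 to 204292079. The NTRK3 nuclei had 1201, 1685, 313 and 982 CPM in libraries 3 to 6. None of the other 7 groups exceeded 268 CPM in any library with at least 10 of its nuclei. The group was 10.2-fold (9.61 to 10.9) above the others. Thinned to 1000 UMIs, 53.7% of 147 NTRK3 nuclei and 3.77% of 212 PVALB nuclei held a DSCAM UMI, leaving out 20 and 3, with unthinned shares of 81.4% and 13.5% at median depths of 4668 and 4397 UMIs. On the large-fibre side DSCAM was at 555 CPM against 107 CPM, 5.21-fold higher (4.86 to 5.58). In library 1, whose large-fibre nuclei were mostly of the PVALB group, the log2 ratio was −0.28. Without nuclei above 50000 UMIs, 9 of them in the NTRK3 group, the log2 ratio between the sides was 1.81 instead of 2.38 and that of the NTRK3 group 3.10 instead of 3.36. DSCAML1, its paralog, had 15.6 CPM in the NTRK3 group and 1.24 CPM in the PVALB group.

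Counted over all members, 11 of 46 (23.9%) were at least 2-fold higher on the large-fibre side, against 8.69% of the 13067 genes with enough UMIs, and 8 of 46 (17.4%) were at least 2-fold lower, against 5.46% of those genes. The median log2 ratio was 0.12 over the members and 0.07 over all genes. The 11 higher genes were CBLN2, DSCAM, NLGN1, LRFN2, NRXN2, LRRN2, LRRTM1, SLITRK1, SLITRK5, LRRN1 and CADM4, of which LRRN1 and CADM4 lay at a log2 ratio of 1.00, at the edge of the count. The 8 lower ones were LRRTM3, NECTIN3, NECTIN1, LRRTM2, TENM1, SLITRK2, CNTN2 and FLRT2. A ratio between the sides could rest on a single group. NRXN2 had 71.0 CPM in the NTRK3 group, 5.07 in NTRK2 and 3.71 in PVALB, against 10.6 on the C-fibre side. CADM4 had 31.6 CPM in the PVALB group, 6.09 in NTRK2 and 6.55 in NTRK3, against 7.62. DSCAM and NLGN1 were lower in the PVALB group than on the C-fibre side. CBLN2 and LRRN1 were above the C-fibre side in each large-fibre group.

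**Figure D3:**
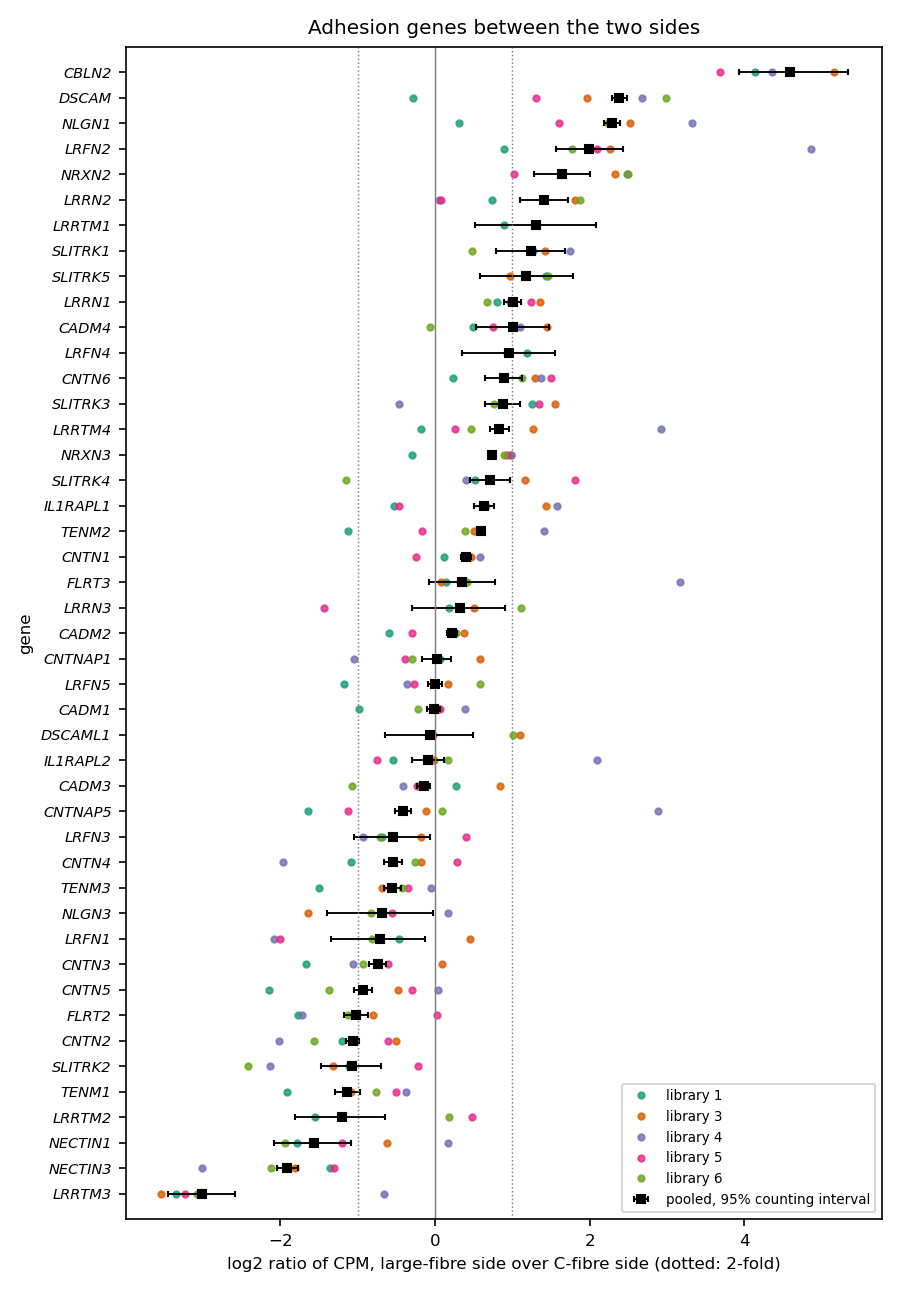
Log2 ratio of CPM of the large-fibre side over the C-fibre side for 45 of the 46 genes, with dotted lines at 2-fold. Squares are pooled ratios with 95% counting intervals and points are ratios within libraries, and CBLN2 at 4.59 and LRRTM3 at −3.01 mark the ends.

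By group, the share of members at least 2-fold above the other groups was 5 of 46 for TRPM8 (2.44% of all genes), 3 for IL31RA (3.53%), 6 for GFRA2 (3.41%) and 6 for ADCYAP1 (3.22%). It was 4 of 46 for KIT (5.07%), 6 for NTRK2 (5.01%), 9 for NTRK3 (13.4%) and 9 for PVALB (17.4%). These comparisons share their nuclei, since each group is part of the other groups' reference. The members' share was 19.6% in both the NTRK3 and the PVALB group, which for PVALB is near that of all genes. In the IL31RA group more members were low than high: 17 of 46 (37.0%) were at least 2-fold lower, against 17.7% of all genes, with a median log2 ratio of −0.59 against −0.22. In the PVALB group 24 of 46 (52.2%) were at least 2-fold lower, against 26.5% of all genes, with medians of −1.10 and −0.22. Members took 0.451% of the PVALB group's UMIs and 0.567% of the IL31RA group's, compared with 0.804% to 1.23% in the other 6 groups.

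In several groups the direction went with the length of the gene, most widely in the PVALB group. Of the 24 members that span at least 100 kb in RefSeq, none was at least 2-fold higher and 20 (83.3%) were lower, with a median log2 ratio of −1.79. Of the 22 shorter ones, 9 (40.9%) were higher and 4 (18.2%) lower, with a median of 0.55. Among all genes, 1.94% of 2427 long ones were higher and 42.0% lower. For 7852 short ones the shares were 22.4% and 17.2%. All genes thus showed the same order, with smaller medians of −0.82 for long genes and 0.12 for short ones. Members of at least 100 kb had medians of −1.33, −2.49 and −2.26 in libraries 1, 3 and 4. In the NTRK3 group the order was reversed, with medians of 0.40 over long members and −0.53 over short ones, and 0.33 and −0.22 over all genes. The IL31RA group had medians of −1.34 over long members and −0.04 over short ones, and the GFRA2 group −0.67 and 0.23, in the order of the PVALB group. The ADCYAP1 group, with 0.28 and −0.57, and the KIT group, with 0.08 and −0.34, were in the order of the NTRK3 group. The medians lay closer in the NTRK2 group, 0.05 and −0.21, and in the TRPM8 group, 0.09 and 0.04. Over all genes the order was that of the members in the IL31RA (−0.52 and −0.08), GFRA2 (−0.23 and −0.05), ADCYAP1 (0.17 and −0.11) and KIT (0.03 and −0.23) groups. It was opposite to that of the members in the NTRK2 (−0.19 and −0.13) and TRPM8 (−0.16 and −0.08) groups. Not every library shared the members' orders. In library 5 the order was reversed for the NTRK3 group, with medians of −0.26 over long members and 0.28 over short ones. The IL31RA group was reversed there too (−0.46 and −0.62). So were the ADCYAP1 group in library 4 (−0.41 and −0.37) and the KIT group in library 3 (−0.20 and −0.18). The NTRK2 group was reversed in library 3 (−0.06 and 0.125) and library 6 (−0.20 and 0.03), and the TRPM8 group in libraries 3 and 5. The PVALB and GFRA2 groups kept their order in each library compared. NRXN2, at 99.4 kb, and FLRT2, at 101 kb, lay on either side of the limit. In library 3, the mitochondrial shares given above were high in the PVALB nuclei and low in the NTRK3 nuclei, and glial markers were highest in the PVALB group. The part of either in this difference was not tested.

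**Figure D4:**
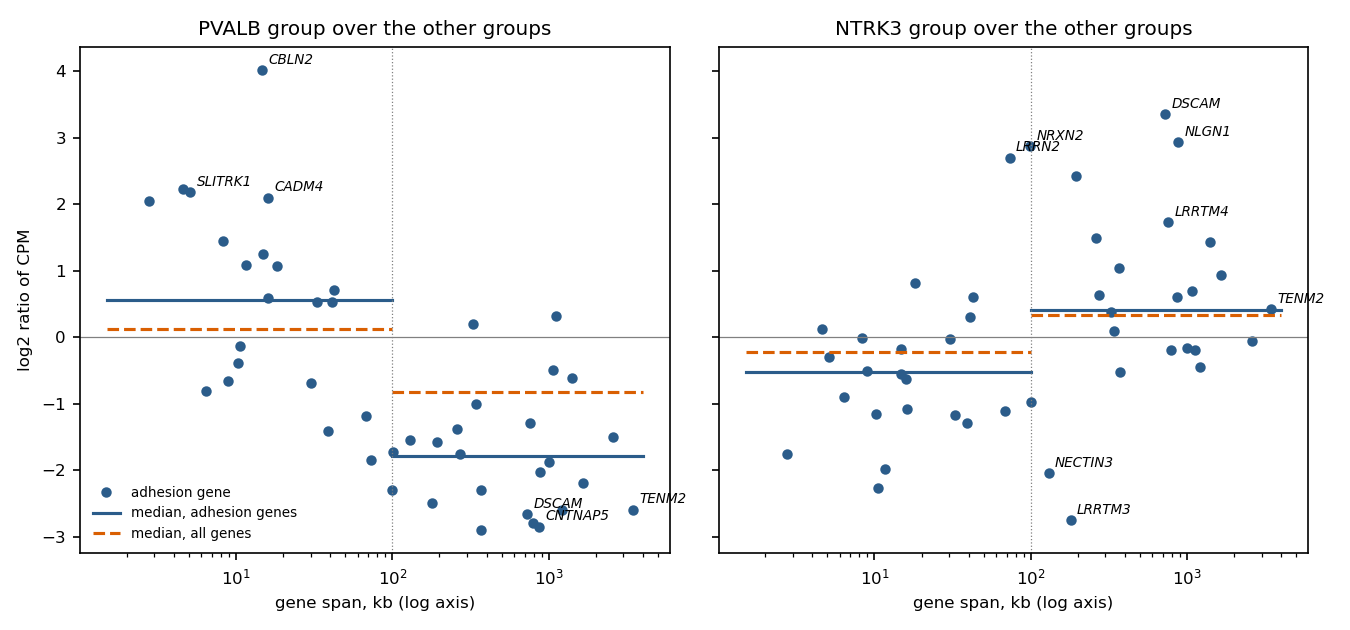
Log2 ratio of CPM of the PVALB group (left) and the NTRK3 group (right) over the other groups, against gene span in kb on a log axis. Points are 45 of the 46 genes and lines are medians of the adhesion genes (solid) and of all genes (dashed) on each side of 100 kb, and in the PVALB group the long adhesion genes have a median of −1.79.

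Of 71 measured partner genes outside the rule (ligands, receptors and scaffolds of the same synapses), 62 had enough UMIs. Of these, 13 were at least 2-fold higher on the large-fibre side and 7 lower. These shares were 21.0% and 11.3%, against 8.69% and 5.46% of all genes. The netrin-G adhesion genes were among the highest. NTNG2 was 8.94-fold higher (6.61 to 12.3) and NTNG1 6.33-fold higher (5.48 to 7.33), at 147 against 23.1 CPM. They were followed by EFNB2, an ephrin, at 6.01-fold, its receptor gene EPHB3 at 3.96-fold and CLSTN1, a calsyntenin, at 3.20-fold. NEGR1, a GPI-anchored protein of neurite outgrowth, was 5.18-fold lower (4.89 to 5.49), at 274 against 1420 CPM, in 5 of 5 libraries. IGSF21 was 3.19-fold lower, CHL1 2.63-fold, C1QL2 2.49-fold and PTPRD, a phosphatase that binds SLITRK and IL1RAPL proteins, 2.24-fold.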

How the data were processed

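Nuclei of ganglia from 5 pigs were sequenced with a 10x Genomics kit for 3′ ends, per the labels' protocols. The tools listed, per the submitters' processing notes, were Cell Ranger 6.0.1 and Seurat, and the build was Sscrofa11.1. The deposited values were raw counts of UMIs, 30477 rows by 2189 nuclei, not normalized. The lowest total was 501 UMIs. No nucleus was removed and no doublet caller was run.

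Members and gene lists were chosen with earlier results of these data known. Clusters came from scanpy 1.11.5 (2000 variable genes less members and partner genes, 30 components, 15 neighbours, Leiden resolution 1.0), which gave 23 clusters. A cluster needed a log2 score of at least 1 for its leading gene. UMIs were summed per group and expressed as CPM. A gene was compared with at least 50 UMIs over both sides, and a difference was counted from 2-fold. Within a library, a ratio needed 10 nuclei a side and 10 UMIs, and 0.5 counts were added. The script was tested on simulated data.

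Full values went to the 10 members with most UMIs, the 10 largest ratios each way between the sides and the 3 largest of each group. Other values, among them those by cluster and by gene span, were chosen after they were seen. Coordinates and spans are those of RefSeq genes, which matched all 51 members. Of the genes, 1 member and 1 partner gene are in the counts but not reported here.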

Additional observations from a re-analysis of the deposited data

How the results depend on the processing

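Across 21 alternatives, of which 19 were planned and 2 were chosen after seeing the data, 42 ratios of 28 members past 2-fold were recomputed, and 40 kept their direction and 20 stayed past 2-fold wherever they could be computed. Those that turned were both in the NTRK2 group: with Leiden resolution 0.5 the log2 ratio was −0.23 for CBLN2 and −0.12 for SLITRK4, and with members kept in the clustering features it was −1.34 and −0.79. Of 201 counts, 186 were within 1.5 times the reported one. Grouping each nucleus on its own gave 5 members lower on the large-fibre side and 2 higher in the KIT group. Resolution 0.5 gave 8 higher in the TRPM8 group, 1 in the IL31RA group and 3 in the NTRK2 group, and resolution 1.5 gave 3 in the NTRK2 group. Mean CPM over nuclei gave 5 lower on the large-fibre side and 1 higher in the TRPM8 group, and the mean of within-library ratios gave 3 in the NTRK2 group. Thinning to 1000 UMIs, with a minimum of 10 UMIs instead of 50, gave 3 in the TRPM8 group and 6 in the IL31RA group. No UMI minimum gave 10 in the GFRA2 group. Leaving out each library in turn gave 5 to 10 lower members on the large-fibre side (5 without library 1 or 6), 9 to 12 higher ones there, and 5 to 9 in the PVALB group (5 without library 1). The cause of these shifts was not tested. No paired analysis was possible because the labels' numbers name pigs and no library is tied to a pig. Groups were compared within the same library instead, as the within-library ratios above. Depth limits the members under 50 UMIs and, in the NTRK2 group, any value from a library other than 3 and 6.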

Other observations

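The 103 nuclei without a leading gene had the highest LRRTM4 level in the data, 1064 CPM, at 752, 1926, 596 and 1141 CPM in libraries 1, 3, 5 and 6. The next highest group, NTRK3, had 348 CPM. These nuclei also had 531 CPM of DSCAM, and SLC17A7 was at 0 in them.

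A further 3 rows carry an Ensembl identifier to which the gene-name table gives a symbol of the same families, and they are not counted as members. CNTNAP4, with 3729 UMIs, was at 460 CPM in the KIT group, 361 CPM in the IL31RA group and 40.8 CPM in the PVALB group, and reached 716 CPM in the nuclei without a group. TENM4, with 934 UMIs, was at 184 CPM in the NTRK3 group and had no UMI in library 3, where 805 nuclei were measured, so its values rest on the other libraries. FLRT1 had 70 UMIs and was highest in the KIT group, at 23.7 CPM.

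Within the NTRK2 group, 3 clusters differed in many members. Cluster 11 had 3518 CPM of NRXN3 and 1208 CPM of NLGN1, cluster 16 had 1571 and 53.3 CPM, and cluster 13 had 482 and 75.2 CPM. SLITRK4 was at 186 CPM in cluster 13, against 30.4 CPM in cluster 16 and 3 UMIs in cluster 11.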
